A study of Mus musculus with 8 samples.

Results

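The genes described here build or dock with the manchette and the head-tail coupling apparatus of spermatids. They are Hook1, Meig1, Spag16, Lrguk, Iqcg, Spata6, Sun3, Sun5 and Spag4, 9 of the 21949 genes in the deposited tables, and they were picked by symbol. Each gene was represented by its transcript with the highest mean count over the 8 libraries. Total RNA and ribosome-protected fragments (RPF, or footprints, the stretches of mRNA that ribosomes shield from nuclease) came from C57BL/6 testes collected on day 24 after birth. Animals were either wild type (WT) or Miwi-null, that is, without the PIWI protein encoded by Piwil1. Each of the 4 groups, WT RNA, null RNA, WT RPF and null RPF, had 2 libraries. The sources used here do not give the kind of null allele, and the labels do not tie libraries to animals, so p-values measure the spread between libraries, which may be technical in part.

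The manchette is a transient skirt of microtubules that surrounds the nucleus of the elongating spermatid. It helps to shape the sperm head, and proteins travel along it towards the base of the growing tail. SUN-domain proteins sit in the inner nuclear membrane and join partners of the outer membrane in bridges between nucleus and cytoskeleton. The head-tail coupling apparatus then anchors the flagellum to the nucleus, and mice that lack one of its parts make sperm whose heads come off.

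Piwil1 RNA was counted 8215 and 7165 times in WT but 46 and 26 times in null, and its footprints 14206 and 6868 times against 37 and 94, so each library carried the Piwil1 level of its label. Gene counts per library ran from 11130954 to 15592804 in RNA and from 11662659 to 28334618 in footprints. The footprint libraries were uneven in depth, at 28054417 and 17735638 for WT replicates 1 and 2 and 11662659 and 28334618 for null replicates 1 and 2. They also differed along a shared line. Over 10171 genes with a mean of at least 10 CPM (counts scaled by library size, here after TMM adjustment), the difference between replicates 1 and 2 in WT RPF correlated at r = -0.808 with that in null RPF. WT replicate 1 and null replicate 2, the deepest pair, thus leaned one way, and this bears on several values below.

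Promoter stretches with short motif matches are shown first, as a description. RefSeq promoters (GRCm38.p6) were at hand for all 9 genes, 13 in all, and their 250 bases before the start were searched on either strand for 3 sets of letters. These were the cAMP response element (CRE) TGACGTCA, bound by CREM and its relatives, its core TGACG, and the core GTTGCC of the X-box, which RFX factors of ciliated cells bind. Each full CRE also holds matches to the core. The letters were chosen with results of these data known. Of 32851 mouse promoters of this length 1.55% held the full CRE, 17.8% its core and 10.4% the X-box core. Of the 13 member promoters 2 held the CRE, those of Spag4 and Lrguk, and 3 held the X-box core, 1 each of Spag16, Iqcg and Lrguk. The core TGACG was in 4 of the 13, those of Spag4 and Lrguk and, without a full CRE, 1 each of Meig1 and Spata6. The stretches of 30 bases read 5′ to 3′ on the gene's strand, with the matches in capitals.
Spag16 (chr1:69826851-69826880, plus strand): ggtaactaGGCAACgcGTTGCCgtagtaac
Iqcg (chr16:33056288-33056317, minus strand): gtctttgtaagcGGCAACacgtattattta
Iqcg (chr16:33056188-33056217, minus strand): cttgcgcgacgcGTTGCCatagctaccgat
Lrguk (chr6:34029418-34029447, plus strand): gccaTGACGTCAgtctcctaGGCAACgcgt
Spag4 (chr2:156065173-156065202, plus strand): cagTGACGTCAcgggcgctctgTGACGcgg
Distances are to the start used in the promoter table. For Spag16, Iqcg, Lrguk and Spag4 that start lies inside the gene span given below, so these stretches overlap or fall within those spans. In Spag16 the pair of X-box cores stood on opposite strands, 111 and 103 bases before that start. The Lrguk stretch holds a CRE 26 bases and an X-box core 10 bases before its start in that table. A match is a run of letters and was not tested as a binding site.

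In null testes the 9 genes did not move as a group. Spag4 and Sun3, which encode SUN proteins of the spermatid nuclear envelope, lost most of their footprints, and the RNA of Sun3 did not pass the test. Meig1 lost RNA by more than it lost footprints. Hook1 and Spata6 fell moderately in both assays. Spag16 rose in both, and Iqcg, Lrguk and Sun5 passed in neither. In RNA 4 of the 9 were lower and 1 was higher, where 20.8% of the 16051 genes tested were lower, 16.5% higher and 37.3% called in all (edgeR quasi-likelihood test, Benjamini-Hochberg adjusted p under 0.05). In footprints 5 were lower and 1 higher, against 13.3% lower, 12% higher and 25.4% in all. In translational efficiency (TE), the change in footprints beyond that in RNA, 2 were lower and 1 higher, against 7.56% lower, 7.33% higher and 14.9% in all. Scaling moves this balance: higher genes were 44.1% of RNA calls and 49.2% of TE calls, but 55.1% and 29.2% without TMM, and 39.0% of TE calls with TMM within each assay. The median log2 changes of the 9 were -0.0276 in RNA, -0.429 in footprints and -0.155 in TE, and those of all genes tested were -0.0737, -0.00464 and 0.0432.

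**Figure D1:**
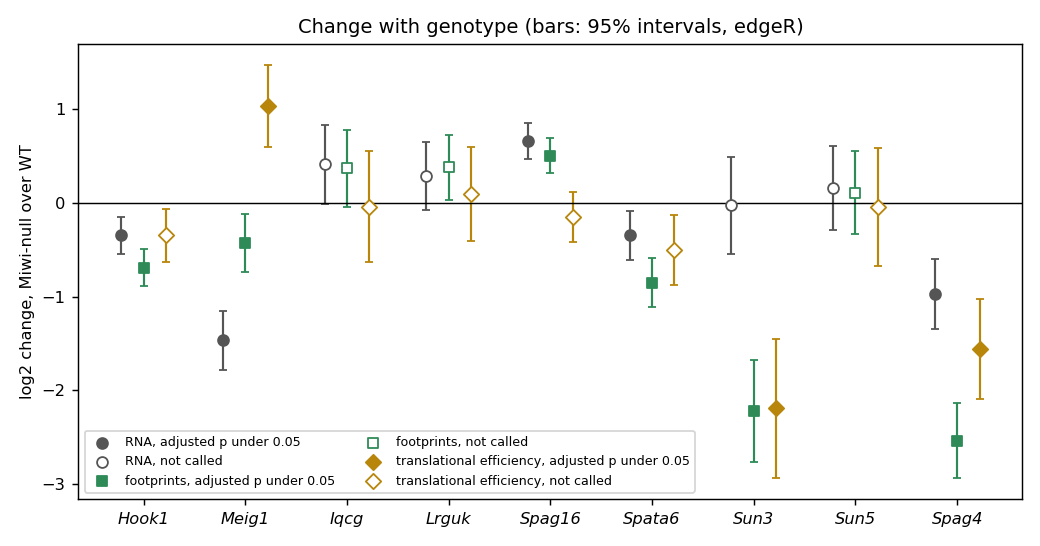
Log2 change of Miwi-null over WT for each of the 9 genes in RNA, footprints and translational efficiency, with 95% intervals from the edgeR fit. Filled symbols passed an adjusted p of 0.05, and Sun3 and Spag4 show the deepest footprint and efficiency changes, where footprints changed by -2.22 and -2.54.

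Spag4 (chromosome 2, 156065188 to 156069501, GRCm38.p6) encodes SUN4, which works with SUN3 where the manchette meets the nucleus. Its RNA stood at 290 and 287 CPM in the WT libraries and at 143 and 151 CPM in the null ones. Its footprints stood at 206 and 146 CPM in WT and at 27.15 and 33.15 CPM in null. WT and null did not overlap in either assay. The log2 change was -0.97 ± 0.16 (SE) in RNA and -2.54 ± 0.17 in footprints, with adjusted p-values of 0.00216 and 1.54e-05. The footprints thus dropped to 0.172 of the WT level while the RNA dropped to 0.509 of it. TE fell by 1.56 ± 0.23 (adjusted p = 0.00451), to 0.338 of the WT value, which placed Spag4 below all but 3.15% of genes tested. The authors' deposited ratio of RPF to RNA per length was 0.911 and 0.616 in WT and 0.213 and 0.261 in null.

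Sun3 (chromosome 11, 9016043 to 9048991) encodes another SUN protein of the spermatid, found on the part of the nuclear envelope that faces the manchette. Its RNA was level, at 34.7 and 41.3 CPM in WT and 36.8 and 37.7 CPM in null, and the ranges overlapped. Its footprints were at 74.0 and 46.6 CPM in WT against 10.6 and 14.8 CPM in null, with no overlap. The RNA change was -0.03 ± 0.23 on the log2 scale (adjusted p = 0.938, 95% interval -0.55 to 0.49), and its sign turned under 8 of 18 alternatives. Footprints fell by 2.22 ± 0.24 (adjusted p = 0.000231), to 0.214 of WT. TE fell by 2.19 ± 0.33 (adjusted p = 0.00443), and only 1.46% of genes tested had a lower value. The deposited ratio went from 2.73 and 1.37 in WT to 0.323 and 0.467 in null. Depth was modest here, since the null footprints of Sun3 came from 119 and 427 counts and its RNA from 432 to 555 counts per library. One end of Sun3 overlaps the protein-coding gene Gm11992 in the RefSeq annotation, and no source says whether the counting used strand.

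The Spag4 calls in RNA, footprints and TE and the Sun3 calls in footprints and TE held under all 18 alternatives run, leaving out each library included. Over these the TE change ranged from -1.78 to -1.31 for Spag4 and from -2.53 to -1.835 for Sun3. The lowest values came without WT RPF replicate 2 for Spag4 and without null RPF replicate 2 for Sun3, and the highest without WT RPF replicate 1 for either gene.

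Sun5 (chromosome 2, 153856188 to 153871365) encodes the SUN protein that holds the tail to the sperm head. Its RNA was at 69.1 and 64.85 CPM in WT and 72.5 and 76.7 CPM in null. Footprints lay at 131 and 86.0 CPM in WT and 102 and 132 CPM in null, so the groups overlapped. Neither RNA (0.16 ± 0.20, adjusted p = 0.572) nor footprints (0.11 ± 0.19, adjusted p = 0.72) passed. The TE change was -0.05 ± 0.28 with a 95% interval of -0.68 to 0.58, which lies wholly above the intervals of Spag4 (-2.10 to -1.03) and Sun3 (-2.94 to -1.45). A test of that difference between genes was not run. Without WT RPF replicate 1 the footprint change of Sun5 became 0.48 (adjusted p = 0.0493), and without WT RPF replicate 2 it became -0.16 (adjusted p = 0.438). With the RNA libraries fitted alone its RNA passed, at 0.22 (adjusted p = 0.0116).

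**Figure D2:**
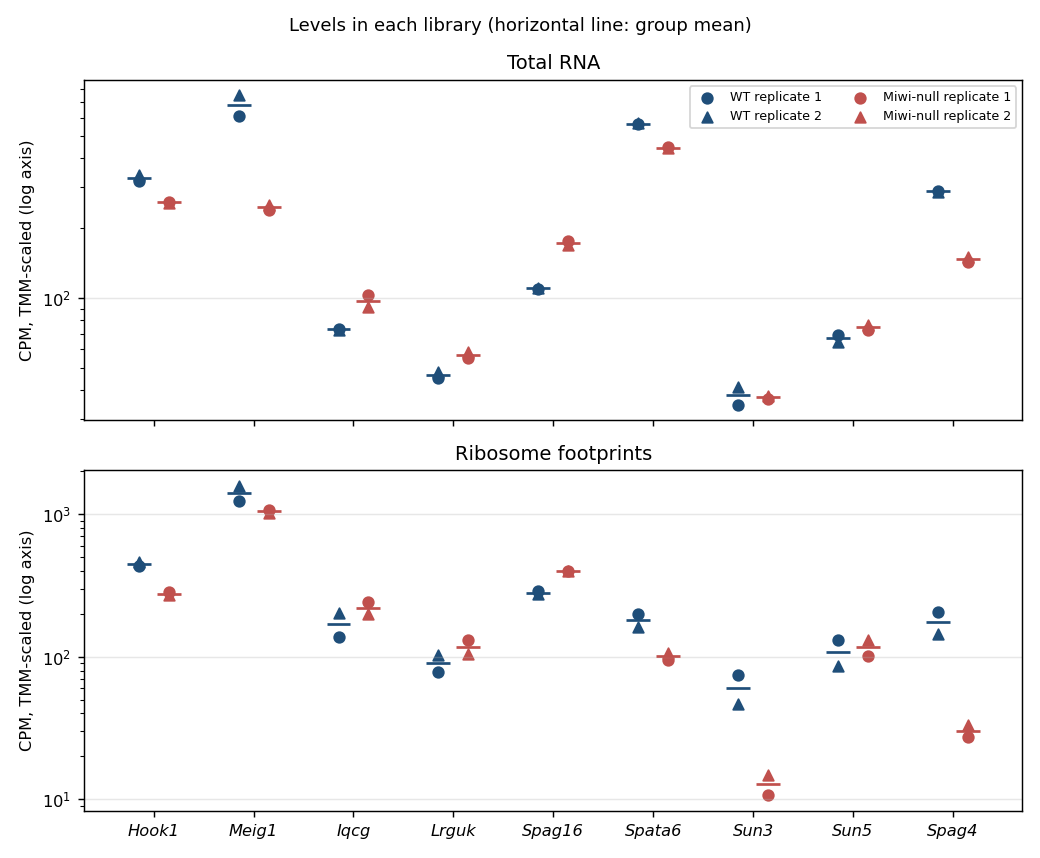
CPM of the 9 genes in each of the 8 libraries on a log axis, RNA above and footprints below, with replicates as circles and triangles and group means as lines. For Sun3 the null footprints at 10.6 and 14.8 CPM lie far under the WT ones, while its 4 RNA values lie between 34.7 and 41.3 CPM.

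Spata6 (chromosome 4, 111719951 to 111829142) encodes a protein that the connecting piece of the sperm neck needs in order to form. Its RNA fell from 561 and 570 CPM in WT to 447 and 441 CPM in null. Its footprints fell from 201 and 163 CPM to 95.3 and 106 CPM. The genotypes did not overlap in either assay. RNA fell by 0.35 ± 0.11 on the log2 scale (adjusted p = 0.042) and footprints by 0.85 ± 0.12 (adjusted p = 0.000923). The RNA call is fragile, being lost under 10 of 18 alternatives. It ended without TMM (0.184), with TMM within each assay (0.0863), without any single RNA library (adjusted p 0.146 and 0.156 without WT replicates 1 and 2, 0.176 and 0.192 without null replicates 1 and 2) and without null RPF replicate 2 (0.0827). The RNA call also ended with DESeq2 (0.0842), a block on replicate number (0.0795) and a trend on coding length removed (0.0575). The footprint call held under all 18. The TE change of -0.50 ± 0.16 missed the threshold (adjusted p = 0.0719) and reached it without WT RPF replicate 2 (0.0069) and with TMM within each assay (0.049).

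Spata6 also had a low deposited ratio of RPF to RNA per coding length. RNA counts may take in bases outside that length, and their part in the ratios of different genes was not tested. The ratio of Spata6 was 0.459 and 0.346 in WT and 0.239 and 0.286 in null. The median over the genes tested was 1.26 in WT and 1.18 in null. In WT 14.3% of genes tested had a lower mean ratio. Of the 9 genes Spag4 was the other one below 1 in WT, at 0.763 ± 0.209 (SD, n = 2). The remaining 7 had mean WT ratios from 1.70 for Hook1 to 3.20 for Spag16. In null Sun3 joined Spata6 and Spag4 below 1, at 0.395 ± 0.102, and Spag4 was lowest of the 9 at 0.237 ± 0.0338, within the spread of Spata6 at 0.262 ± 0.0335.

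**Figure D3:**
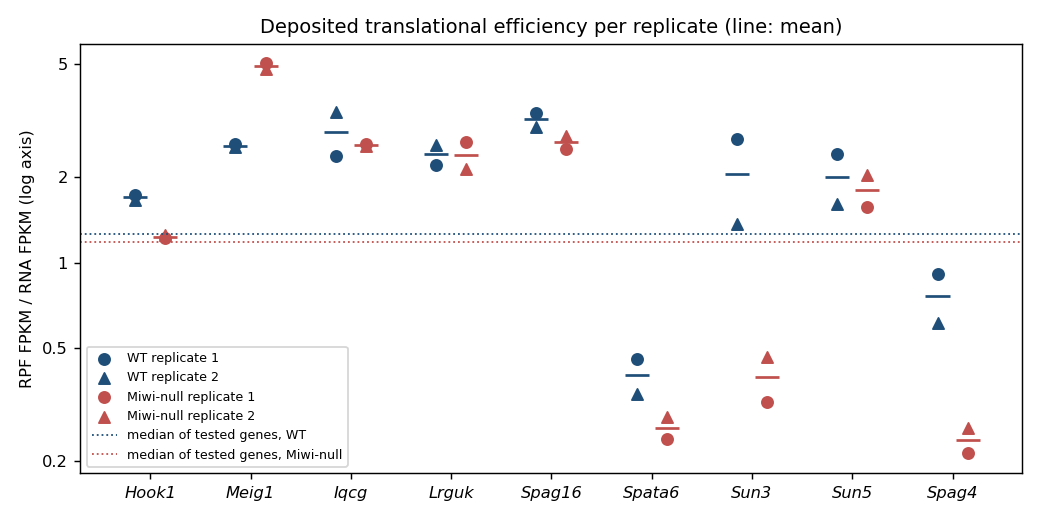
Deposited ratio of RPF FPKM to RNA FPKM for each gene and replicate on a log axis, with group means as lines and dotted lines at the median of the genes tested. Meig1 rises from 2.62 and 2.56 in WT to 5.04 and 4.83 in null, while Sun3 and Spag4 drop below 0.5.

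Hook1 (chromosome 4, 95967181 to 96025412) encodes a linker between microtubules and cargo, and it is the gene disrupted in the azh mouse, whose sperm heads are misshapen. RNA stood at 318.5 and 340 CPM in WT and 261 and 258 CPM in null. Footprints stood at 432 and 465 CPM in WT and 283 and 272 CPM in null, with tight pairs that did not overlap. RNA fell by 0.35 ± 0.09 on the log2 scale (adjusted p = 0.0146) and footprints by 0.69 ± 0.09 (adjusted p = 0.000584). The RNA call was lost without WT RNA replicate 2 (0.096), null RNA replicate 1 (0.111) or null RNA replicate 2 (0.12), whereas the footprint call held under all 18 alternatives. TE changed by -0.35 ± 0.12 and did not pass (adjusted p = 0.0939), but passed without TMM (0.0268) and without WT RPF replicate 1 (0.0381). The lncRNA gene 9530080O11Rik overlaps one end of Hook1 in the annotation, so reads of the pair may be mixed there. The lncRNA genes Gm33192 and Gm38786 likewise overlap one end of Spata6 and of Lrguk. Pseudogenes lie within the spans of Spata6 and Spag16, and small RNA genes within that of Spag16.

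Meig1 (chromosome 2, 3409043 to 3422648) encodes a small protein of 88 codons that brings cargo to the manchette. Per coding length, in FPKM, it had the highest level of the 9 in each group. Its RNA fell from 610 and 749 CPM in WT to 240 and 252 CPM in null, while its footprints went from 1249 and 1582 CPM to 1077 and 1025 CPM. The genotypes did not overlap in either assay. The RNA fell by 1.47 ± 0.14 on the log2 scale (adjusted p = 0.000109) and the footprints by 0.43 ± 0.14 (adjusted p = 0.0479). TE rose by 1.04 ± 0.19 (adjusted p = 0.0106), a value above that of 94.9% of genes tested and opposite in sign to those of Sun3 and Spag4.

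The RNA call of Meig1 held under all 18 alternatives, but with a trend on coding length removed its change was -0.97. The footprint call was lost under 12 of 18. Among them were DESeq2 (0.0665), TMM within each assay (0.0506) and a replicate block (0.0592). The call also ended with the footprint libraries alone (0.179) and the length trend removed (-0.25, adjusted p = 0.239). It was also lost without any single library other than WT RPF replicate 1. Leaving out WT RNA replicates 1 and 2 gave 0.0599 and 0.0605, null RNA replicate 1 or 2 gave 0.0947, null RPF replicates 1 and 2 gave 0.10 and 0.171, and WT RPF replicate 2 gave a change of -0.25 at 0.142. The TE call was lost without WT RNA replicate 2 (0.0546), null RNA replicate 1 (0.0724) or null RNA replicate 2 (0.0585) and with the length trend removed (0.72, adjusted p = 0.0516).

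Meig1 has 6 transcripts with counts, 5 of them of the same coding length of 264 bases. These 5 had the same footprints (1420 CPM in WT and 1050 in null) but unlike RNA, from 218 to 679 CPM in WT. The log2 ratio of mean RNA over the 5 ran from -1.47 to -1.10, against -0.429 for footprints. The size of the TE change therefore depends on which transcript stands for the gene, and the one used here had the deepest RNA fall.

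Spag16 (chromosome 1, 69826872 to 70725132) encodes a protein of the central apparatus of the axoneme that also binds MEIG1. Its RNA rose from 109 and 111 CPM in WT to 177 and 170 CPM in null, and its footprints from 287 and 276 CPM to 398.5 and 399 CPM. Replicates were close and the genotypes did not overlap. RNA rose by 0.66 ± 0.08 on the log2 scale (adjusted p = 0.000515) and footprints by 0.50 ± 0.08 (adjusted p = 0.00254). The RNA call held under all 18 alternatives and the footprint call under 17, the exception being the footprint libraries fitted alone (adjusted p = 0.0675). TE changed by -0.16 ± 0.12 (adjusted p = 0.413, 95% interval -0.42 to 0.11). A shorter transcript of 1215 bases, which shares sequence with the main one, had a log2 RNA ratio of 0.188 and a footprint ratio of 0.483.

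Iqcg (chromosome 16, 33014270 to 33057145) encodes a calmodulin-binding protein that sperm tails need, and Lrguk (chromosome 6, 34029245 to 34134034) a leucine-rich repeat protein that the manchette and axoneme need. Iqcg RNA was at 73.7 and 72.7 CPM in WT and 103 and 91.2 CPM in null, and its footprints at 137 and 204 CPM in WT and 242 and 198 CPM in null. Lrguk RNA was at 45.1 and 47.7 CPM in WT and 54.8 and 58.4 CPM in null, and its footprints at 78.2 and 103 CPM in WT and 131 and 105 CPM in null. The null values were the higher ones in Lrguk and in Iqcg RNA, while the Iqcg footprints of the genotypes overlapped. None passed. The RNA changes were 0.41 ± 0.19 for Iqcg and 0.29 ± 0.16 for Lrguk (adjusted p = 0.117 and 0.186), and the footprint changes 0.37 ± 0.18 and 0.38 ± 0.15 (0.179 and 0.102). The 95% intervals reached 0.83 and 0.64 in RNA and 0.78 and 0.73 in footprints, so increases up to that size lie within the intervals.

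The Iqcg and Lrguk calls changed with the WT footprint libraries. Without WT RPF replicate 2 the footprint changes became 0.68 for Iqcg (adjusted p = 0.00417) and 0.59 for Lrguk (0.0101). Without WT RPF replicate 1 the RNA changes passed for Iqcg (0.48, adjusted p = 0.00554) and Lrguk (0.35, adjusted p = 0.0313), and Iqcg RNA also passed without WT RPF replicate 2 (0.015). With the RNA libraries fitted alone Iqcg RNA passed at 0.48 (adjusted p = 2.94e-06) and Lrguk RNA at 0.35 (adjusted p = 0.000493), and without TMM Iqcg RNA passed at 0.51 (0.0408). The TE changes were -0.04 ± 0.26 and 0.09 ± 0.22, with adjusted p-values of 0.937 and 0.821. Iqcg overlaps Rpl35a and Lrch3 at its ends in the annotation, and Rpl35a is a ribosomal protein gene.

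The shared lean of the footprint libraries ran through most of the members. In WT RPF replicate 1 was higher than replicate 2 by 1.59 times for Sun3, 1.52 for Sun5, 1.42 for Spag4 and 1.24 for Spata6, and in null RPF replicate 2 was higher than replicate 1 by 1.39, 1.29, 1.22 and 1.12 times. For Meig1, Lrguk and Iqcg the ratios were under 1 in either genotype, at 0.79, 0.762 and 0.671 in WT and 0.952, 0.803 and 0.819 in null. For Hook1 and Spag16 they lay close to 1, at 0.928 and 1.04 in WT and 0.959 and 1.0 in null. The 4 genes of the nuclear envelope and neck were thus higher in the deeper footprint library of each genotype. With a block that pairs the libraries along this lean (replicate numbers crossed between genotypes, chosen after seeing the data), the footprint change was -2.22 for Sun3 (adjusted p = 9.03e-05) and -2.535 for Spag4 (5.04e-07), and Sun5 did not pass (0.12, adjusted p = 0.527). Calls were gained there for Iqcg RNA (0.0349), Iqcg and Lrguk footprints (0.0483 and 0.0391) and Spata6 TE (0.0362). For Sun3 and Spag4 this lean is smaller than the fall between genotypes, of 4.67 and 5.81 times.

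Levels of different genes were compared per coding length, in the authors' FPKM. Neighbours are said to differ beyond their spread where the gap exceeds the sum of their SDs. Meig1 transcripts of the same coding length had unlike RNA counts, so RNA counts may take in bases outside that length. The part of such bases in the RNA order of the genes was not tested. In WT RNA Meig1 was highest at 2034 ± 288 (SD, n = 2), then Spata6 at 305 ± 2.46, Spag4 at 172 ± 1.94 and Hook1 at 119 ± 5.09. Sun5 (50.7 ± 2.45), Iqcg (46.1 ± 0.568), Spag16 (45.3 ± 0.412), Sun3 (31.3 ± 3.78) and Lrguk (14.9 ± 0.54) followed, and of these neighbours Iqcg and Spag16 did not differ beyond their spread. In WT footprints Meig1 (5268 ± 658) and Hook1 (202 ± 2.21) led. Spag16 (145 ± 10.2), Iqcg (133 ± 31.8), Spag4 (131 ± 37.3), Spata6 (123 ± 23.4), Sun5 (103 ± 34.1), Sun3 (62.3 ± 22.5) and Lrguk (36.1 ± 5.42) followed, and none of these 7 differed from its neighbours in that run beyond their spread. In null RNA the order was Meig1 (771 ± 29), Spata6 (251 ± 1.93), Hook1 (98.2 ± 0.621), Spag4 (91.5 ± 3.77), Spag16 (74.9 ± 2.08), Iqcg (64.1 ± 5.56), Sun5 (59.2 ± 2.46), Sun3 (32.1 ± 0.564) and Lrguk (19.1 ± 0.888), and Iqcg and Sun5 did not differ beyond their spread. In null footprints Meig1 (3802 ± 30.1) was followed by Spag16 (199 ± 8.79), Iqcg (167 ± 16.3), Hook1 (121 ± 1.69), Sun5 (107 ± 24), Spata6 (65.9 ± 7.93), Lrguk (45.6 ± 5.07), Spag4 (21.75 ± 3.99) and Sun3 (12.7 ± 3.49), and Hook1 and Sun5 did not differ beyond their spread. Lrguk, lowest in the other groups, stood above Spag4 and Sun3 there.

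Profiles over the 8 libraries were compared by the Euclidean distance between log2 CPM values centred on each gene's mean, as a description. Among the 9 genes Lrguk and Iqcg were closest, at a distance of 0.376, and Spag16 lay 0.589 from Iqcg and 0.688 from Lrguk. These 3 are the genes whose promoters held the X-box core. Lrguk and Spag4, whose promoters held the full CRE, were 4.82 apart. Whether the letters bear on the profiles was not tested. Sun3 and Spag4 were 1.80 apart, and the widest gap was 5.25, between Spag16 and Spag4. Of 10171 genes the nearest to Spag4 were Ccdc54 (0.368) and Fndc8 (0.415), with footprint changes of -2.67 and -2.19. The nearest to Sun3 were Tsga13 (0.733) and Pmis2 (0.789), at -1.81 and -2.59 in footprints and 0.24 and -0.55 in RNA. The nearest were Pdgfra and Gsto2 for Hook1, Lgals1 and Chmp1b for Meig1, Polr1e and Enkur for Spag16, Ttc39b and Aldh3a2 for Lrguk, P2rx4 and 4921524L21Rik for Iqcg, Antxrl and Parvg for Spata6 and Slc25a3 and Elovl5 for Sun5.

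Other transcripts of the members were compared with the main ones as a description, since transcripts of a gene share fragments. Footprint ratios were close to those of the main transcript for other transcripts of at least 631 bases. RNA ratios differed for Hook1 and Spag4, as they did above for Spag16 and Meig1. The 780-base transcript of Sun3 had log2 ratios of -0.00115 in RNA and -2.20 in footprints. The 631-base transcript of Spag4 had -1.18 and -2.73, against -0.975 and -2.55 for the main one. The 1416-base transcript of Spata6 had -0.35 and -0.851, and the 4020-base one of Lrguk 0.293 and 0.398. The 663-base transcript of Hook1 had -0.11 and -0.659, against -0.346 and -0.693 for the main one. Some shorter transcripts departed further. The 280-base one of Spata6 had -0.874 in RNA and -0.203 in footprints, and its 528-base one -0.475 and -0.596. The 216-base one of Lrguk had 0.85 and -0.259, from a mean of 46.75 counts. The 234-base and 118-base ones of Spag4 had 0.112 and 0.137 in RNA and -1.62 and -1.66 in footprints.

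Lists of 48 further genes of these structures served as surroundings. In RNA 15 were higher and 13 lower, in footprints 14 higher and 7 lower, and in TE 5 higher and 6 lower, with medians of 0.0776, 0.103 and 0.0217. Of all genes tested 37.3% were called in RNA, 25.4% in footprints and 14.9% in TE. Among the 25 genes of the manchette and its transport 9 rose and 4 fell in RNA and 8 rose and 1 fell in footprints. Of the 13 genes of head-tail coupling 2 rose and 7 fell in RNA and 2 rose and 5 fell in footprints. Of the 10 genes of the nuclear envelope and its cytoskeletal bridges 4 rose and 2 fell in RNA and 4 rose and 1 fell in footprints. In TE the counts were 2 higher and 2 lower, 0 higher and 3 lower, and 3 higher and 1 lower, in the same order. The TE count of the manchette list was near the share of all genes.

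The largest decreases came from 4 of these genes. Odf1, an outer dense fibre protein of the coupling list, had log2 changes of -1.92 ± 0.13 in RNA, -6.015 ± 0.16 in footprints and -4.10 ± 0.19 in TE. Oaz3, the antizyme of spermatids and on the same list, had -1.89 ± 0.16 in RNA, -5.165 ± 0.19 in footprints and -3.28 ± 0.235 in TE. Spatc1, a centrosome protein of that list, had -1.925 ± 0.12 in RNA and -2.15 ± 0.15 in footprints. Spem1, on the manchette list, had -2.97 ± 0.18 in RNA and -3.26 ± 0.29 in footprints. Its TE change of -0.28 ± 0.35 did not pass (adjusted p = 0.639), and its WT footprints were scarce, at a mean of 6.99 CPM against 310 CPM in RNA.

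Of the genes that rose, 3 were named per assay. Spef2, Ift88 and Spag17 RNA rose by 0.95 ± 0.10, 0.92 ± 0.18 and 0.88 ± 0.12, the call of Ift88 being lost without WT RNA replicate 1 (adjusted p = 0.0517). Ccdc42, of the manchette and the connecting piece, rose by 1.07 ± 0.10 in footprints, the nuclear anchor gene Syne1 by 0.98 ± 0.11 and the kinesin gene Kif3a by 0.96 ± 0.13. TE rose for Hook2 (1.05 ± 0.23), Cep131 (0.85 ± 0.15) and Lmna (0.74 ± 0.19) and fell for Cul3 (-0.73 ± 0.20). These TE calls depend on single libraries and on the model. With a replicate block the adjusted p was 0.0518 for Hook2, 0.0743 for Lmna and 0.0874 for Cul3, and without TMM it was 0.0628 for Lmna. Without single RNA libraries the adjusted p was 0.0744 to 0.103 for Hook2, 0.105 to 0.17 for Cul3 and 0.0749 to 0.144 for Lmna. Cep131 lost its call without WT RNA replicate 1 (0.0578), null RNA replicate 1 (0.0681) or null RNA replicate 2 (0.0596), Lmna also without WT RPF replicate 1 (0.059) and null RPF replicates 1 and 2 (0.057 and 0.105), and Cul3 without null RPF replicate 2 (0.0751).

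**Figure D4:**
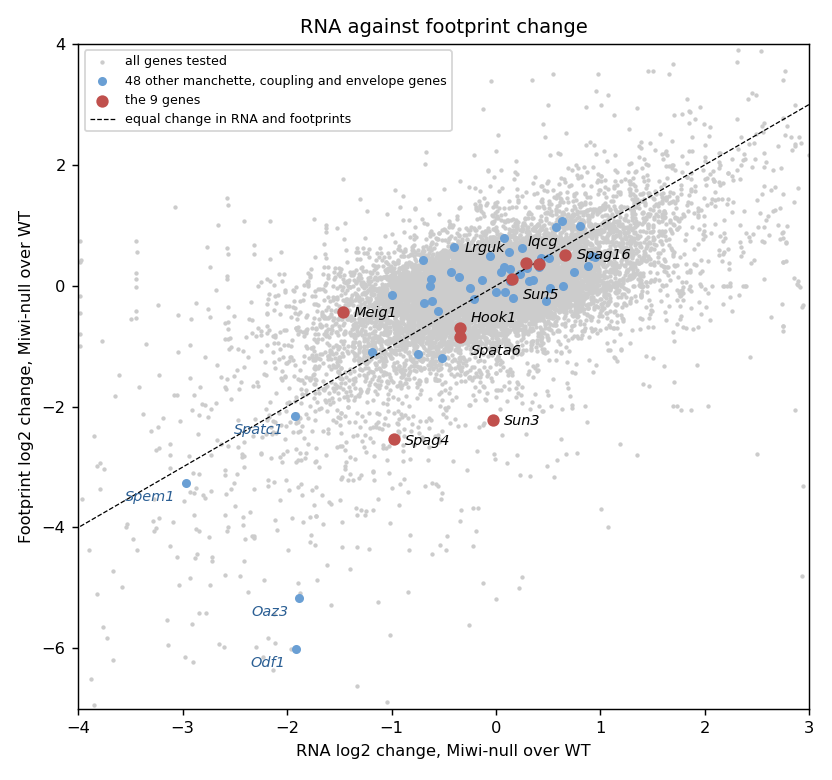
RNA log2 change against footprint log2 change for all genes tested (grey, 139 lie outside the axes), the 48 surrounding genes (blue) and the 9 genes (red), with a dashed line of equal change. Sun3 and Spag4 lie below the line and Meig1 above it, and Odf1 and Oaz3 lie lowest among the blue genes.

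Markers of spermatid stages and of pachytene cells are given beside the 37.3% of all genes called in RNA, 25.4% in footprints and 14.9% in TE. All 12 markers of elongating spermatids fell in RNA and in footprints, with summed levels of 19700 to 20000 CPM in WT RNA, 4140 to 4150 in null RNA, 8040 to 8090 in WT RPF and 665 to 795 in null RPF. Of 12 round spermatid markers 5 fell in RNA and 10 in footprints and 0 rose (2580 to 2660, 1540 to 1560, 2230 to 2340 and 1180 CPM in the same order of groups). Of 12 pachytene markers 5 rose and 2 fell in RNA, and 4 rose and 0 fell in footprints (5870 to 6000, 5940 to 5950, 6290 to 6680 and 7820 to 8050 CPM). Counted in either direction, the round spermatid RNA calls and the pachytene footprint calls were near those shares. By direction, 5 of 12 round spermatid markers were lower in RNA, where 20.8% of all genes were. In footprints 4 of 12 pachytene markers were higher, where 12% of all genes were. In TE 9 of the 12 elongating spermatid markers were lower (median -2.05), 4 of the 12 round spermatid markers were lower (median -0.632), and pachytene markers had 2 higher and 3 lower (median -0.152), against TE changes of -2.19 for Sun3 and -1.56 for Spag4. No marker was at 0 in any group. In bulk testis fewer cells of a type and less RNA per cell cannot be told apart, and the part of stage composition in the member changes was not tested.

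Markers of other cells are given beside the 37.3% of all genes called in RNA, 25.4% in footprints and 14.9% in TE. Of 12 each, spermatogonial markers had 6 lower and 1 higher in RNA and 2 and 0 in footprints, and Sertoli markers 8 and 0, then 3 and 1. Leydig markers had 1 lower and 7 higher in RNA and 0 and 9 in footprints, with a summed RNA level of 1360 to 1380 CPM in WT and 2740 to 2750 in null, and summed footprints of 3240 to 3350 and 11400 to 12100 CPM. Myoid markers had 11 lower and 0 higher, then 6 and 0, and macrophage markers 1 lower and 2 higher, then 2 and 1. Counted in either direction, the macrophage calls in RNA and footprints and the spermatogonial footprint calls were at or below those shares. By direction, 13.3% of all genes were lower in footprints. In TE 6 Sertoli, 3 Leydig and 2 myoid markers were higher and 0 lower, 2 macrophage markers were lower and 0 higher, and 1 spermatogonial marker was higher and 1 lower. Their part in the member changes was not tested.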

How the data were processed

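Fragment counts per transcript, FPKM and the ratio of RPF FPKM to RNA FPKM were deposited by the authors, per the file headers, in 1 table for each replicate number. Counts are not normalized. Upstream tools, per the submitters' processing notes, were STAR 2.5.0a, Bowtie 1.2.2 and cutadapt 2.5, with the build GRCm38 and no roles stated. The sources used here name no counting program and no strand setting. The deposited ratio equalled that of the FPKM columns in 100% of rows compared. The merged table was not used. Symbols were those of the tables, and gene positions came from RefSeq (GRCm38.p6).

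Counts were fitted with edgeR 4.0.16 in R 4.3.3 (filterByExpr with minimum count 10 and total 15, TMM, robust quasi-likelihood, 4 groups, 4 residual degrees of freedom), giving log2 changes with SE and adjusted p over 16051 genes. TE is the interaction of genotype and assay. A gene's single dispersion serves both assays, although the SD of replicate log2 differences was 0.137 to 0.167 in RNA and 0.307 to 0.367 in footprints. Footprint and TE errors may thus be too small, and RNA errors too large. With the RNA libraries fitted alone the SE of the RNA change was smaller for each member. It was 0.0714 against 0.186 for Iqcg and 0.0916 against 0.228 for Sun3. The fit was also run on simulated counts drawn with a single dispersion per gene for both assays. That run could not show errors that come from unlike spread in the assays. Alternatives included DESeq2 1.42.0. The members, gene lists (manchette and transport, head-tail coupling, nuclear envelope, and markers of elongating and round spermatids, pachytene cells, spermatogonia, Sertoli, Leydig, myoid cells and macrophages) and tests were chosen with earlier results of these data known. Named genes were the 9 members, Piwil1, per list comparison and direction the 3 called genes with the largest change, and the 2 nearest profiles of each member among genes of at least 10 CPM.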

Additional observations from a re-analysis of the deposited data

Results flagged for a closer look

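For 3 of the 9 genes the genotype effect differed between RNA and footprints by the interaction test. Its log2 value was 1.037 for Meig1, -2.194 for Sun3 and -1.563 for Spag4, with edgeR adjusted p-values of 0.0106, 0.00443 and 0.00451. The Meig1 value moved with the transcript chosen and with single RNA libraries, as given above, and the other pair held under all 18 alternatives.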

How the results depend on the processing

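Directions held for each called value of the 9 genes under the 18 alternatives run for each comparison, and the calls that were lost are given with the genes. The sign turned where no call was made. Sun3 RNA was 0.0688 without TMM, 0.0388 with TMM within each assay, 0.0825 with the length trend removed, 0.0377 with the RNA libraries alone and 0.0113 with DESeq2, and Lrguk TE was -0.0488 without TMM. Without single libraries Sun3 RNA ran from -0.15 to 0.10, Sun5 footprints from -0.16 to 0.48, Lrguk TE from -0.13 to 0.30, Iqcg TE from -0.34 to 0.27 and Sun5 TE from -0.31 to 0.26. The cause was not tested. Of all genes 5984 were called in RNA, 4073 in footprints and 2390 in TE. With the libraries of the assay alone these became 9041 (8 of the 9 members) and 1983. Without single libraries they ran from 3244 to 7095, 2939 to 5170 and 620 to 3636, and RNA calls among the members from 3 to 7. The share of higher genes among calls went from 44.1% to 55.1% in RNA without TMM, and in TE from 49.2% to 29.2% without TMM, where the median TE of all genes shifted by -0.142, to 39.0% with TMM within each assay, and to 36% and 37.7% without null RNA replicates 1 and 2. Same-numbered libraries share only a number. A replicate block gave 5022, 3061 and 1237 calls, and a block within genotype 1850 in TE. Differences between replicates correlated at r = -0.808 between WT and null footprints, and a block with the numbers crossed between genotypes, added after seeing the data, gave 6774, 5011 and 3316 calls, with 6, 8 and 4 of the 9 members called.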
